A study of Mus musculus with 2 samples.

Results

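Fatty acid oxidation and ketone body metabolism were followed through 36 named genes of the 36458 gene symbols with a value, in RNA-seq of liver cells from mice with chronic CCl4 injury. The genes were chosen by name for their place in mitochondrial or peroxisomal β-oxidation, in its electron transfer step or in ketone body metabolism, with earlier results of these data known. Each of the 36 had 1 value per library.

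In β-oxidation a fatty acid is first joined to coenzyme A and carried into the mitochondrion as a carnitine ester. There a cycle of acyl-CoA dehydrogenase, enoyl-CoA hydratase, hydroxyacyl-CoA dehydrogenase and thiolase shortens it by an acetyl-CoA unit each turn, and the electrons pass through electron transfer flavoprotein to the respiratory chain. Peroxisomes run a parallel cycle for very long, branched and dicarboxylic chains, and hepatocytes turn surplus acetyl-CoA into ketone bodies that other tissues burn.

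The study compared hepatic stromal cells, a population meant to hold hepatic stellate cells (HSCs) and myofibroblasts (MFs), with and without the transcription factor FOXF1. Adult male C57/Bl6 mice of both genotypes received CCl4, a hepatotoxin, for 5 weeks. Controls were Foxf1 fl/fl mice, in which loxP sites flank an exon of Foxf1 but no Cre is present. The other mice were αSMACreER;Foxf1 fl/fl, called αSMACreER;Foxf1-/- after deletion, and carried a tamoxifen-inducible Cre driven by the promoter of α-smooth muscle actin, so that deletion is aimed at cells that express this gene. Tamoxifen was injected over the injury period to activate the knockout. The study describes liver staining of both genotypes after CCl4 and tamoxifen. It does not say plainly whether the controls behind this library also received tamoxifen. Dispersed liver cells were plated for 2 h and the adherent cells were collected, with no sort for a cell type, and each library was made from pooled RNA of 1 genotype. The Foxf1 transcript itself was not analysed here.

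There was 1 pooled library per genotype, so no difference below has a replicate check and no test between genotypes was possible. Levels are FPKM, read fragments divided by transcript length in kilobases and by the library's mapped fragments. From the spacing of low values, about 9760000 reads were estimated behind the Foxf1 fl/fl library and 11330000 behind the αSMACreER;Foxf1-/- library. These estimates are rough, since 50.6% and 52.8% of the low values used lay within 0.1 of a whole read. They give each ratio an approximate 95% interval that covers counting error only and holds no difference between animals or pools.

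The adherent population was checked against markers first. The stellate marker Des had an FPKM of 1.70 in Foxf1 fl/fl and 3.29 in αSMACreER;Foxf1-/- cells, Acta2 (α-smooth muscle actin) had 7.77 and 5.65, and Pdgfrb had 1.03 and 1.43. Matrix genes of the stellate and myofibroblast list were more abundant, with 102 and 151 for Col1a2 and 127 and 186 for Dcn. Of the 13 genes of that list with a mean FPKM of at least 1, 11 were higher in αSMACreER;Foxf1-/- cells after scaling, but Acta2 was not. The macrophage genes listed summed to 15235 and 12894, and the stellate and myofibroblast genes to 452 and 650. The Kupffer cell lectin Clec4f had 1117 and 753 and Lyz2 had 3682 and 3395, but Cd163 had 30.0 and 18.1. Hepatocyte transcripts were also present, with 2292 and 912 for Alb. Values below therefore describe the whole adherent population and not stellate cells alone, and in such a bulk sample fewer cells of a type cannot be told apart from less RNA per cell.

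Fatty acid oxidation genes were lower on balance in αSMACreER;Foxf1-/- cells. Of the 36 members, 35 had a mean FPKM of at least 1, and 13 of these were at least 1.5-fold lower while none was 1.5-fold higher, on the scale of log2(scaled FPKM + 0.1). Across all 12692 genes that passed the same filter, 13.2% were at least 1.5-fold lower and 12.8% higher, or 1671 and 1627 genes. With the libraries scaled to an equal FPKM sum these were 1107 and 2777 genes, and 10 members were lower and 1 higher. The counting interval lay below no change for each of the 13. The median log2 ratio of the members was −0.48, against 0.01 over all genes (−0.28 against 0.21 with an equal FPKM sum), and 29 of the 35 were below 0, against 49.6% of all genes. At 2-fold, 6 members were lower and 0 higher, against a background of 6.19% lower and 4.36% higher.

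The summed FPKM of the members was 1229 in Foxf1 fl/fl and 833 in αSMACreER;Foxf1-/- cells, or 0.163% and 0.125% of all FPKM. Fabp1 alone made up much of that gap, and without it the sums were 1010 and 776. The members spread widely, from a log2 ratio of −2.32 for Acaa1b to 0.57 for Acsl4. Decr1 at −0.60 and Hadh at −0.59 lay just past the 1.5-fold threshold, and Acaa1a at −0.57 and Acsl4 at 0.57 just within it.

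**Figure D1:**
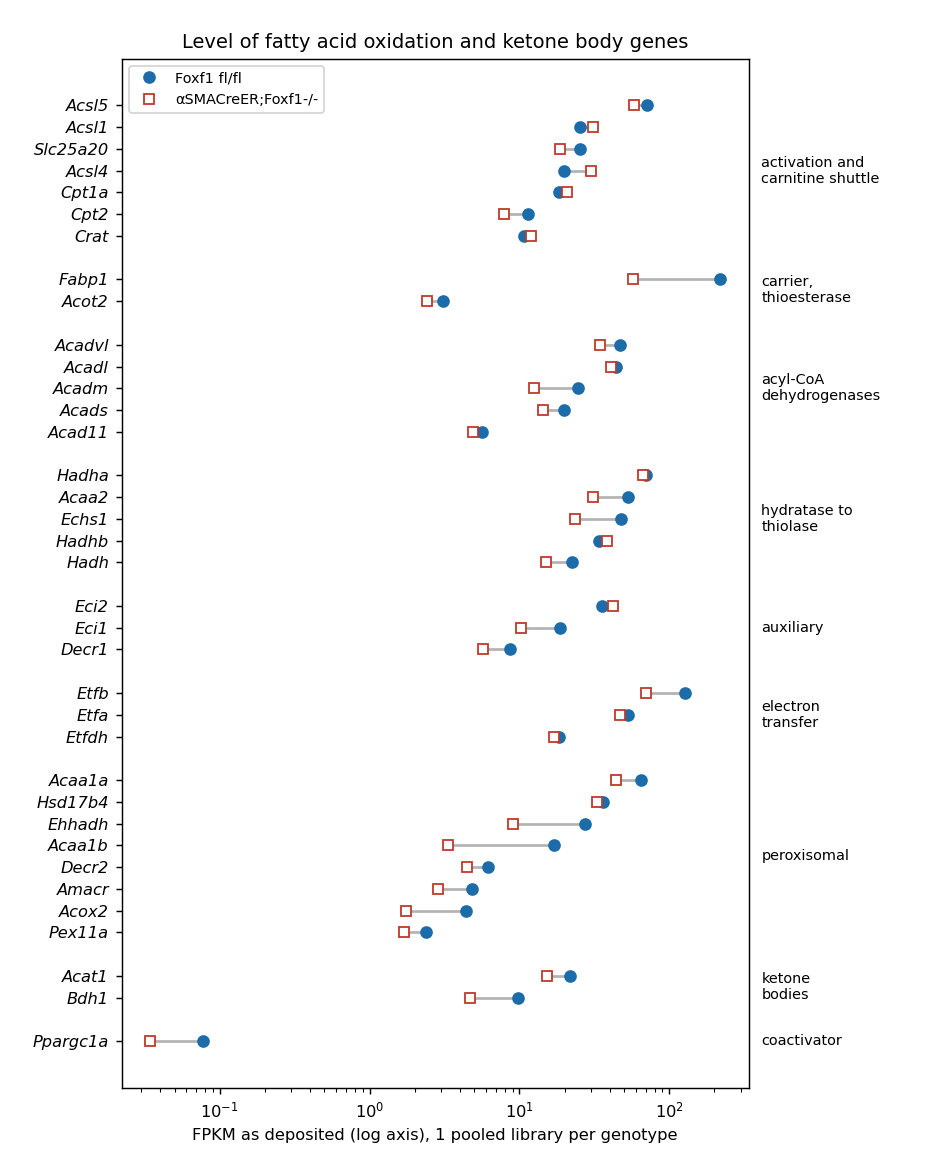
FPKM of the 36 genes (log axis) in the Foxf1 fl/fl library (filled circles) and the αSMACreER;Foxf1-/- library (open squares), 1 pooled library per genotype, grouped by role. The widest gaps are those of Acaa1b (16.9 and 3.36) and Fabp1 (219 and 57.2), while Hadha (69.9 and 67.1) barely separates.

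Genes of the first steps, activation and carnitine entry, lay on both sides of 0. None of the 7 was past 1.5-fold under the scaling used. Acsl4 was past it, and higher, with FPKM as deposited (0.595), upper-quartile scaling (0.594) or an equal FPKM sum (0.772). The median log2 ratio of the 7 was 0.12, or −0.08 once the trend with transcript length was subtracted. With an equal FPKM sum this median was 0.32. The acyl-CoA synthetase Acsl5 was the most abundant of the 7, with an FPKM of 71.0 in Foxf1 fl/fl and 58.4 in αSMACreER;Foxf1-/- cells (log2 ratio −0.31, counting interval −0.38 to −0.23). Acsl4, which prefers arachidonic acid, had 19.95 and 30.2, the highest ratio of any member (log2 0.57, 0.46 to 0.69). Acsl1, the major synthetase of liver, had 25.5 and 31.1 (log2 0.26). The ratio of Acsl4 to Acsl5 thus stood at 0.28 in Foxf1 fl/fl and 0.52 in αSMACreER;Foxf1-/- cells, a log2 difference of 0.88 (0.74 to 1.01).

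Cpt1a, the carnitine palmitoyltransferase of the outer membrane that sets the rate of entry, had 18.3 and 20.8 (log2 0.16, 0.02 to 0.30). Its partner on the inner membrane, Cpt2, had 11.4 and 7.85 (log2 −0.56, −0.85 to −0.29), and the carnitine-acylcarnitine translocase Slc25a20 that links them had 25.2 and 18.6 (log2 −0.46). The ratio of Cpt2 to Cpt1a was 0.63 in Foxf1 fl/fl and 0.38 in αSMACreER;Foxf1-/- cells (log2 difference −0.72, −1.03 to −0.42). Crat, which moves acetyl groups between coenzyme A and carnitine, had 10.7 and 11.9 (log2 0.12, −0.07 to 0.30). After length adjustment Cpt1a (−0.028), Crat (−0.072) and Acsl1 (−0.076) were all slightly below 0.

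Fabp1, the liver fatty acid-binding protein that carries fatty acids through the hepatocyte cytosol, had the highest mean FPKM of the members and the second lowest ratio. Its FPKM was 219 in Foxf1 fl/fl and 57.2 in αSMACreER;Foxf1-/- cells, 25.7% of the control after scaling (log2 −1.96, −2.18 to −1.74, about 756 and 230 reads). The gene lies at chr6:71199827-71205023 on the plus strand (GRCm38) and codes for protein. Acot2, a mitochondrial acyl-CoA thioesterase, had 3.09 and 2.40 (log2 −0.37, −0.95 to 0.16), and its interval included no change. Of the 75-base windows of its transcript, 21.2% also occur in transcripts of other genes, mostly Acot1.

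PPARα, the nuclear receptor that drives many genes of this pathway in liver, binds a pair of AGGTCA sites spaced by 1 base, and Fabp1 has long served as an example of its targets. The promoter of Fabp1 is shown for this reason. It spans the 250 bases before the RefSeq start site (chr6:71199629-71199878, plus strand, GRCm38.p6), and capitals mark a match to a relaxed form of this direct repeat (DR1), with any base allowed at the fourth position of each AGGTCA copy and between the copies, which lies on the opposite strand at bases −67 to −55 from the start site.
Fabp1: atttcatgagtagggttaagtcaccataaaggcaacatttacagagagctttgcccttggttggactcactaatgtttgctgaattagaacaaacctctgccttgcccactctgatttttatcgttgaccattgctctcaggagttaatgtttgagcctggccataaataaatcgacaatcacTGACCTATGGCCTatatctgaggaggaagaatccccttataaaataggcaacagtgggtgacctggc
Of 32841 mouse promoters of 300 bases, 125 (0.381%) held this relaxed form on either strand, and Fabp1 was the 1 gene with it among the 30 members with a promoter sequence. The exact repeat, AGGTCA on both sides of any 1 base, occurred in 13 promoters (0.0396%) and in 0 of the members. The single site AGGTCA, which any exact repeat also contains, occurred in 5 members (Acadm, Acadvl, Cpt1a, Echs1 and Fabp1) and in 16.3% of all promoters. These matches describe letters in a window and not binding.

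The acyl-CoA dehydrogenases, which open each turn of the cycle and are split by chain length, were all below 0 (Acadl lay above 0, at 0.077 after length adjustment and at 0.066 with an equal FPKM sum), with 1 of 5 past 1.5-fold and a median of −0.48. Acadm, for medium chains, had an FPKM of 24.6 in Foxf1 fl/fl and 12.5 in αSMACreER;Foxf1-/- cells (log2 −0.997, −1.23 to −0.78). Acadl, for long chains, had 44.1 and 40.8 (log2 −0.14, −0.28 to 0.01), and its interval reached no change. The ratio of Acadm to Acadl was 0.56 and 0.31, a log2 difference of −0.86 (−1.12 to −0.60), so the balance between these 2 enzymes differed by more than counting error.
The very long-chain enzyme Acadvl had 47.0 and 34.3 (log2 −0.48), and the short-chain enzyme Acads had 19.9 and 14.3 (log2 −0.50). The counting intervals of both lay below 0. Acad11, a relative that takes longer chains, had 5.64 and 4.93 (log2 −0.21, −0.52 to 0.09), and 12.6% of its windows are shared with overlapping or other genes.

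The middle and last steps of the mitochondrial cycle divided by enzyme form. The trifunctional protein, which performs the last 3 reactions on long chains at the inner membrane, is built from the products of Hadha and Hadhb. Hadha had an FPKM of 69.9 in Foxf1 fl/fl and 67.1 in αSMACreER;Foxf1-/- cells (log2 −0.08, −0.16 to −0.01), and Hadhb had 33.9 and 38.6 (log2 0.16, 0.01 to 0.32). Neither sign was stable, since Hadha was at 0.12 with an equal FPKM sum and Hadhb at −0.026 after length adjustment. The separate matrix enzymes that act on shorter chains were each past 1.5-fold under the scaling used, though Hadh was within it with a pseudocount of 1 or any of the 3 other scalings tried and Acaa2 (−0.51) after length adjustment. The hydratase Echs1 had 47.3 and 23.5 (log2 −1.03, −1.22 to −0.84), the dehydrogenase Hadh had 22.4 and 15.1 (log2 −0.59, −0.83 to −0.36), and the thiolase Acaa2 had 53.1 and 30.9 (log2 −0.80, −0.98 to −0.64). All 3 matrix enzymes were therefore below both subunits of the trifunctional protein by ratio.

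Hadha and Hadhb lie head to head on chromosome 5, at chr5:30118304-30155162 (minus strand) and chr5:30155248-30184593 (plus strand), with 85 bases between them in GENCODE M21. Their promoter windows overlap by 228 bases. The log2 ratios of the pair differed by 0.25 (0.08 to 0.42). Of the windows of the Hadhb transcript, 57.2% also occur in the processed pseudogene Gm13910, which is listed at 0 in both libraries.

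Auxiliary enzymes, which handle the double bonds of unsaturated fatty acids, were at least 1.5-fold lower in 2 of 3, both of which were within 1.5-fold after length adjustment (Eci1 −0.54, Decr1 −0.58). Decr1 was also within it with a pseudocount of 1 and under the other scalings tried. Eci1 (enoyl-CoA isomerase of the mitochondrion) had an FPKM of 18.7 in Foxf1 fl/fl and 10.2 in αSMACreER;Foxf1-/- cells (log2 −0.89, −1.25 to −0.54). Eci2, the isomerase found in both mitochondria and peroxisomes, had 35.3 and 42.1 (log2 0.23, 0.07 to 0.39), so that these isomerases lay on opposite sides of 0 with a log2 difference of −1.12 (−1.50 to −0.74). The dienoyl-CoA reductase Decr1 had 8.62 and 5.76 (log2 −0.60, −0.90 to −0.32). Its peroxisomal counterpart Decr2 had 6.20 and 4.50 (log2 −0.48), and the pair differed by 0.12 (−0.35 to 0.59), within counting error.

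Electron transfer flavoprotein is a dimer of ETFA and ETFB, which hands electrons from the dehydrogenases to the oxidoreductase ETFDH. Etfb had an FPKM of 128 in Foxf1 fl/fl and 70.0 in αSMACreER;Foxf1-/- cells (log2 −0.90, −1.05 to −0.74). Etfa had 53.2 and 46.6 (log2 −0.22, −0.38 to −0.05), and Etfdh had 18.4 and 17.1 (log2 −0.13, −0.33 to 0.07). After length adjustment Etfb was within 1.5-fold (−0.49) and Etfa turned to 0.084, and with an equal FPKM sum Etfdh turned to 0.072. The subunits thus differed in ratio, with 2.41 Etfb per Etfa in Foxf1 fl/fl and 1.502 in αSMACreER;Foxf1-/- cells (log2 difference −0.68, −0.90 to −0.46). Of the Etfb windows, 66.3% are shared with the overlapping gene Gm45233, which was not analysed here, and whether any reads were assigned to it is not known.

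All 8 peroxisomal members were below 0 (Hsd17b4 at 0.038 with an equal FPKM sum), with a median of −0.66. Of the 8, 4 were at least 1.5-fold lower, though Amacr was within 1.5-fold with an equal FPKM sum. Ehhadh, the bifunctional enzyme of the inducible cycle that oxidizes straight and dicarboxylic chains, had an FPKM of 27.5 in Foxf1 fl/fl and 9.01 in αSMACreER;Foxf1-/- cells (log2 −1.62, −1.84 to −1.44). It lies at chr16:21761287-21787807 on the minus strand. Hsd17b4, the other bifunctional enzyme, which serves branched and very long chains and bile acid intermediates, had 36.3 and 32.9 (log2 −0.16, −0.30 to −0.03). Ehhadh made up 43.1% of the pair's FPKM in Foxf1 fl/fl and 21.5% in αSMACreER;Foxf1-/- cells, a log2 difference of −1.46 (−1.70 to −1.22).

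Acox2, the oxidase for branched chains and bile acid intermediates, had 4.42 and 1.74 (log2 −1.32, −1.88 to −0.90, about 117 and 53 reads). Amacr, the racemase that readies branched chains for this pathway, had 4.79 and 2.86 (log2 −0.75, −1.21 to −0.34), or −0.55 with an equal FPKM sum. Both levels were low, which widens their intervals. Pex11a, which takes part in the division of peroxisomes, had 2.37 and 1.71 (log2 −0.47, −1.12 to 0.17), a difference not detectable at this depth.

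A pair of near-identical genes on chromosome 9 encodes peroxisomal thiolases, and the shares below are of this pair alone and not of all peroxisomal thiolase. Acaa1b (chr9:119148023-119157093, minus strand) had an FPKM of 16.9 in Foxf1 fl/fl and 3.36 in αSMACreER;Foxf1-/- cells, 19.5% of the control after scaling and the lowest ratio among the members (log2 −2.32, −2.79 to −1.93). Acaa1a (chr9:119339676-119350299, plus strand) had 64.6 and 44.3 (log2 −0.57, −0.71 to −0.43). Acaa1b gave 20.7% of the pair's FPKM in Foxf1 fl/fl and 7.04% in αSMACreER;Foxf1-/- cells (log2 difference −1.76, −2.19 to −1.32).

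Because the pair is so alike, the coding sequences were compared. Each is 1272 bases long, 1228 bases are identical (96.5%), and the longest identical run is 327 bases, longer than a 75-base read. Exact 75-base windows shared with Acaa1a made up 28.5% of the Acaa1b transcript, and windows shared with any other gene made up 37.8% of it, against 27.3% for Acaa1a. Reads from those windows cannot be assigned by sequence, so the split of the pair is uncertain to that extent. Coding bases 244 to 318 (GENCODE M21, counted from the start codon) are shown as the stretch where the genes are easiest to separate, with their 11 mismatches in capitals.
Acaa1a: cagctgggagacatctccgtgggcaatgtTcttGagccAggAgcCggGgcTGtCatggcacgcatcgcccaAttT
Acaa1b: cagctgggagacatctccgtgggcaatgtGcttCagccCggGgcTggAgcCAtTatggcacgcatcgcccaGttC

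Of the ketone body members, 1 of 2 was at least 1.5-fold lower. Bdh1, the mitochondrial enzyme that interconverts acetoacetate and β-hydroxybutyrate, had an FPKM of 9.75 in Foxf1 fl/fl and 4.69 in αSMACreER;Foxf1-/- cells (log2 −1.06, −1.38 to −0.79). Acat1, the thiolase that joins 2 acetyl-CoA or splits acetoacetyl-CoA, had 21.8 and 15.3 (log2 −0.54, −0.70 to −0.37), within 1.5-fold. Ppargc1a, the coactivator that raises mitochondrial oxidation genes in fasting liver, had 0.08 and 0.03, or about 5 and 2 reads. These levels lie close to the floor of 3 reads, so no ratio is given.

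**Figure D2:**
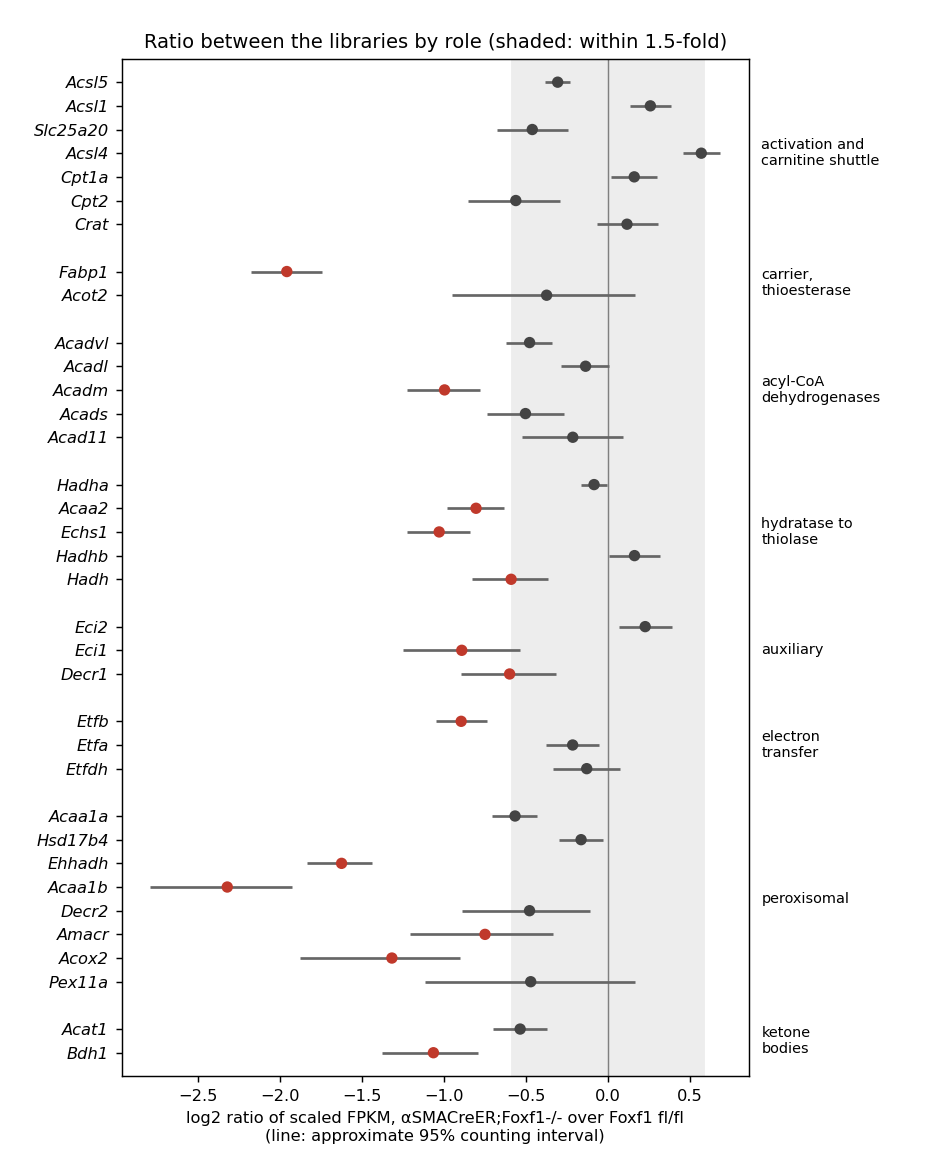
Log2 ratio of scaled FPKM, αSMACreER;Foxf1-/- over Foxf1 fl/fl, for the 35 members with a mean FPKM of at least 1, by role. Lines are approximate 95% counting intervals, the shaded band is within 1.5-fold, and red points are the 13 members at least 1.5-fold lower. Activation and carnitine genes scatter on both sides of 0, and all 8 peroxisomal members lie to its left under this scaling.

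Other genes of the same pathway were counted from a list put together by role. Of 69 such genes, 60 passed the filter, with 22 at least 1.5-fold lower, 3 higher and a median of −0.44, close to that of the members. Among the 22, Acsm3, Hao1, Bdh2 and Fgf21 passed the filter only through their Foxf1 fl/fl value, with an FPKM under 1 in αSMACreER;Foxf1-/- cells. Their ratios are therefore tied to the filter. An equal FPKM sum gave 14 lower and 8 higher, and length adjustment left 1 higher. In the peroxisomal group 8 of 13 were lower. Phyh, which starts the breakdown of phytanic acid, had 77.9 in Foxf1 fl/fl and 39.8 in αSMACreER;Foxf1-/- cells (log2 −0.99). The enoyl-CoA reductase Pecr (log2 −1.54), the coenzyme A diphosphatase Nudt7 (−1.50) and the hydroxyacid oxidase Hao1 (−1.79, −2.85 to −1.11, about 52 and 16 reads) were also lower. So were the membrane transporter Abcd3 (−0.87), Hsdl2 (−0.77), the α-oxidation lyase Hacl1 (−0.62) and the octanoyltransferase Crot (−0.60). Cat, the catalase that removes the peroxide made there, had 60.6 and 43.3 (log2 −0.51).

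Of the ketone body genes on that list, Oxct1, which lets tissues other than hepatocytes burn ketone bodies, had an FPKM of 24.3 in Foxf1 fl/fl and 34.4 in αSMACreER;Foxf1-/- cells (log2 0.47, 0.35 to 0.60). Bdh2, a cytosolic relative of Bdh1, had 1.30 and 0.83 (log2 −0.61, −2.08 to 0.72), past 1.5-fold but with an interval that included no change. The monocarboxylate carrier Slc16a6 was higher, with 9.17 and 15.6 (log2 0.74, 0.56 to 0.93), but within 1.5-fold after length adjustment (0.55). Oxct1 and Slc16a6 thus lay on the other side of 0 from the members Bdh1 and Acat1.

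Of the activation and entry genes outside the members, the liver bile acid and fatty acid ligase Slc27a5 had 28.2 and 9.49 (log2 −1.58), and its relative Slc27a2 had 16.8 and 7.04 (log2 −1.27). The medium-chain ligases Acsm1 (log2 −0.95) and Acsm3 (−1.70, −2.73 to −1.09, about 56 and 18 reads) were also lower. Cpt1b, the muscle form of the entry enzyme, was higher, with 3.36 and 10.9 (log2 1.65, 1.35 to 2.04), but its locus lies wholly within the readthrough gene Gm44502, so its reads cannot be placed with certainty. Acsf2 had 14.8 and 14.4 (log2 −0.06).

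Among carriers, thioesterases and related genes, 4 of 10 were lower. These were the peroxisomal lipid carrier Scp2, with 229 and 143 (log2 −0.70), Acot1 (−0.87), Acot12 (−0.66) and the malonyl-CoA decarboxylase Mlycd (−0.61). The acyl-CoA-binding protein Dbi, the most abundant by mean FPKM, had 437 and 298 (log2 −0.58), and Fabp4 had 415 and 305 (log2 −0.47). Fabp4, the form of adipocytes, macrophages and endothelium, thus had a ratio nearer to 0 than Fabp1. In branched-chain, lysine and propionate breakdown, Gcdh (log2 −0.99), Acad8 (−0.64) and Pcca (−1.27) were lower, while Ivd (−0.49), Hsd17b10 (−0.57), Mcee (−0.24) and the auxiliary isomerase Ech1 (73.5 and 51.4, −0.54) were within 1.5-fold. Eci3, a further isomerase, was under the filter, with 0.18 and 0.39.

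Regulators and response genes lay on both sides of 0, with 5 above and 5 below it. Ppara, which encodes PPARα, had an FPKM of 1.84 in Foxf1 fl/fl and 2.90 in αSMACreER;Foxf1-/- cells (log2 0.61, 0.15 to 1.12). After length adjustment Ppara was within 1.5-fold (0.576). Ppard had 24.7 and 24.3, Pparg had 10.9 and 9.88, and their partner Rxra had 18.3 and 16.8, each within 1.5-fold. The lipid droplet coat gene Plin2, a common target of these receptors, had 765 and 859 (log2 0.14, 0.11 to 0.18), and Angptl4 had 33.1 and 27.6 (log2 −0.29). Fgf21, a hormone gene of the fasting liver, had 2.37 and 0.62 (log2 −1.79, −3.80 to −0.51). The median of these 10 genes was −0.005, against −0.44 over all 60 other pathway genes that passed, a difference that was not tested.

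Mitochondrial genes outside fatty acid oxidation, and genes of peroxisome biogenesis, had medians nearer to 0 than the members. Over all genes 13.2% were at least 1.5-fold lower. Of 19 tricarboxylic acid (TCA) cycle genes, 1 was at least 1.5-fold lower (Fh1, log2 −0.997) and the median was −0.08, which turned to 0.12 with an equal FPKM sum and 0.11 after length adjustment. Of 16 mitochondrial housekeeping genes (protein import, carriers, porins, chaperones, prohibitins and DNA maintenance), 0 were past 1.5-fold in either direction and the median was −0.10, or 0.10 with an equal FPKM sum. Of 14 peroxisome biogenesis genes, 2 were lower (14.3%, near the share of all genes), Pex3 (log2 −1.28) among them. Their median was −0.17, or 0.03 with an equal FPKM sum. These medians, like that of the members, rest on 1 library each way and were not compared by a test.

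Hepatocyte transcripts moved in the same direction as the fatty acid oxidation genes. All 24 genes for secreted hepatocyte proteins with a value were at least 1.5-fold lower, with a median log2 ratio of −1.56 and a range of −2.19 to −1.34. Their summed FPKM was 6885 in Foxf1 fl/fl and 2426 in αSMACreER;Foxf1-/- cells, or 0.913% and 0.364% of all FPKM. Alb was the most abundant (2292 and 912), Ttr had 322 and 86.8, Apoa1 had 261 and 84.2, and none was at 0 in either library. Of the members, 3 (Acaa1b, Fabp1 and Ehhadh) had a ratio at or below the hepatocyte median, and the other 32 that passed the filter lay above it. The part of hepatocyte RNA in the lower values of the members was not tested.

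Neutrophil genes were lower too, in 6 of 7, with a median of −1.35 and sums of 1992 and 807. The most abundant, S100a9, had 1258 and 504, S100a8 had 625 and 256, and Ly6g had 9.82 and was listed at 0 in αSMACreER;Foxf1-/- cells. Of 15 macrophage genes 2 were lower (13.3%), near the 13.2% of all genes. Their median was −0.34 (−0.13 with an equal FPKM sum and −0.11 after length adjustment), with sums of 15235 and 12894. Adgre1 had 162 and 165, and Cd68 had 646 and 679. None of the macrophage genes was at 0. Of 13 stellate and myofibroblast genes that passed the filter 2 were higher (15.4%), against 12.8% of all genes. Their median was 0.49 (0.69 with an equal FPKM sum and 0.25 after length adjustment), with sums over the 18 listed of 452 and 650. Dcn, the most abundant, had 127 and 186. Endothelial genes (12, median 0.18, or 0.39 with an equal FPKM sum and 0.013 after length adjustment) had 93.3 and 96.6 for Pecam1, 98.4 and 112.5 for Cdh5 and 417 and 303 for Stab1. Cholangiocyte genes (6, median −0.09, or 0.11 with an equal FPKM sum) had 39.7 and 29.5 for Krt19, 4.91 and 6.91 for Krt7, 8.38 and 5.65 for Epcam and 495 and 606 for Spp1. Lymphocyte genes (8, median 0.27) had 8.02 and 9.88 for Cd3e, 39.7 and 25.5 for Cd3g and 24.6 and 24.0 for Cd79a. The part of these cell types in the members' ratios was not tested either.

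**Figure D3:**
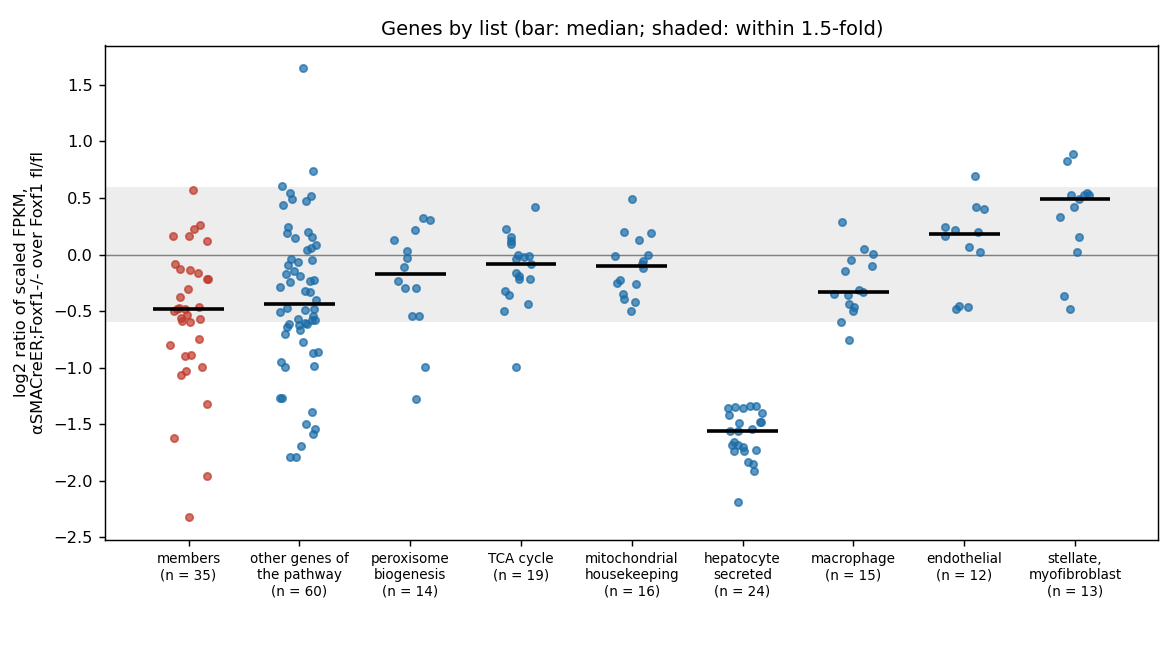
Log2 ratio of scaled FPKM, αSMACreER;Foxf1-/- over Foxf1 fl/fl, for each gene of 9 lists with a mean FPKM of at least 1 (points), with the list median (bar) and the 1.5-fold band (shaded). The members (median −0.48) and other pathway genes (−0.44) have medians between that of the TCA cycle genes (−0.08, above 0 with an equal FPKM sum or length adjustment) and that of the hepatocyte genes (−1.56), though single genes reach past both. The hepatocyte genes lie in a tight group with none inside the band.

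Promoter composition differed among the members in a way that followed their ratios, a feature looked at after the values were known. Promoters rich in the dinucleotide CpG are typical of genes used by most cells, and CpG-poor ones of many tissue-specific genes. CpG content was taken as observed over expected CpG in the 300 bases from 250 before to 50 after the RefSeq start site, for the 29 members with a filter-passing value and an entry. Acox2 (0.163), Fabp1 (0.198) and Acaa1b (0.284) had the lowest values, and all 3 were over 2-fold lower in αSMACreER;Foxf1-/- cells. Acadl (0.932), Hadhb (0.878), Acsl1 (0.859) and Acsl4 (0.857) had the highest, and all 4 were within 1.5-fold.

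Across the 29 members Spearman's rho between CpG content and log2 ratio was 0.62, and across all 9441 genes with both values it was 0.13. Both describe genes of the same pair of libraries, which are not independent replicates. Of the 8 members below 0.5, 4 were at least 1.5-fold lower (median −0.78), and of the 21 at or above 0.5, 6 were (median −0.37). Over all genes, 24.5% of the 1933 below 0.5 and 8.16% of the 7508 at or above it were lower. Of the hepatocyte secreted protein genes 18 of 19 were below 0.5, and of the TCA cycle genes 1 of 16 was.

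The promoters of the peroxisomal thiolase pair and of Hadha are shown to make this difference visible. Each run is the 250 bases before the RefSeq start site on the gene's own strand (GRCm38.p6), and capitals mark each CG. Acaa1b (chr9:119157094-119157343, minus strand) holds 2, Acaa1a (chr9:119341044-119341293, plus strand) holds 10 and Hadha (chr5:30154981-30155230, minus strand) holds 16.
Acaa1b: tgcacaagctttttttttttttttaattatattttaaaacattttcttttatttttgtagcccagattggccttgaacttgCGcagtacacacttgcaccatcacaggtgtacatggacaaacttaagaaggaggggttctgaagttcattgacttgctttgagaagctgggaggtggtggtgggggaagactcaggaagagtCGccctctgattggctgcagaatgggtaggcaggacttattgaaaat
Acaa1a: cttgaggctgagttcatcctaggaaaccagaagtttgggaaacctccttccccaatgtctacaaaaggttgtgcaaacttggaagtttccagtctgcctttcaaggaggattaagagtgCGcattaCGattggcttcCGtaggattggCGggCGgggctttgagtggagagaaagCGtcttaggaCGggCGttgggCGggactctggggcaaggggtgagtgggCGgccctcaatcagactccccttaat
Hadha: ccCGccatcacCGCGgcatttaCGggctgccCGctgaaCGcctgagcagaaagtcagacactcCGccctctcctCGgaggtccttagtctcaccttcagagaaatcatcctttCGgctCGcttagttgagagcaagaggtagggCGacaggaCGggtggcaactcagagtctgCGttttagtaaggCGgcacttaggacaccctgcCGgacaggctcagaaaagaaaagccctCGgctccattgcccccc
The log2 ratios of these genes, in the same order, were −2.32, −0.57 and −0.08.

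**Figure D4:**
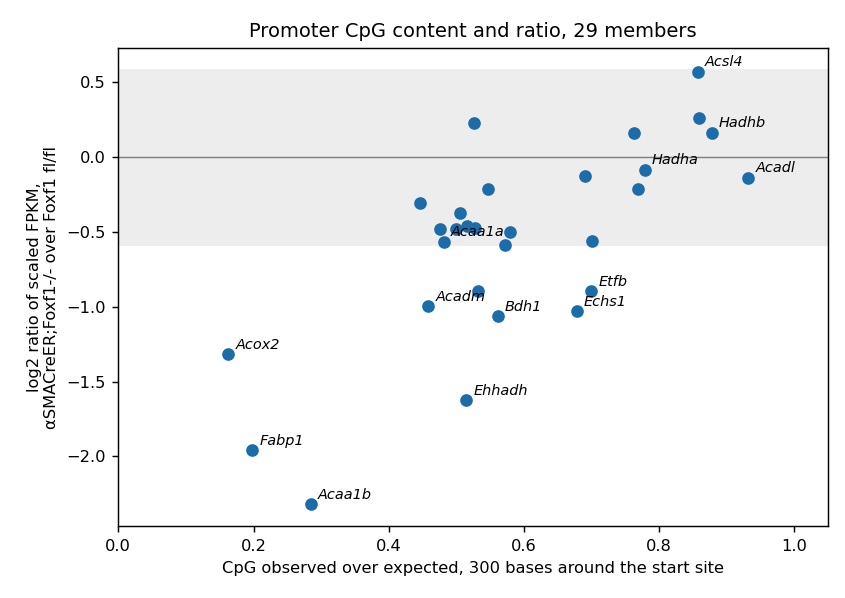
Log2 ratio of scaled FPKM, αSMACreER;Foxf1-/- over Foxf1 fl/fl, against the observed over expected CpG of the 300-base promoter, for 29 members (points), with the 1.5-fold band shaded. Acox2, Fabp1 and Acaa1b stand apart at the lower left, and members above 0.75 all lie in the band.

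Transcript length also moved with the ratio. Across all 12692 genes Spearman's rho between the longest annotated transcript and the log2 ratio was 0.45, and across the 35 members it was 0.51, as a description over genes that share both libraries. The 13 lower members had a median longest transcript of 2577 bases (553 to 4088), and the 22 others 3140 bases (1392 to 5676), against 3067 over all genes. Fabp1 (553 bases), Etfb (893) and Eci1 (1137) were the shortest of the members that passed. After the median ratio of genes of like length was subtracted, in 20 length groups, the member median was −0.40, against 0 over all genes. On this scale 10 members were at least 1.5-fold lower. The share of all genes past 1.5-fold on this scale is not given here, so these 10 cannot be set against the unadjusted share. Etfb (−0.49), Eci1 (−0.54), Acaa2 (−0.51) and Decr1 (−0.58) were then within 1.5-fold, Acaa1a (−0.66) was past it, and Acaa1b (−2.08), Ehhadh (−1.60), Fabp1 (−1.60), Acox2 (−1.30), Echs1 (−1.15) and Bdh1 (−1.07) were still over 2-fold lower. The cause of the length trend was not tested.

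**Figure D5:**
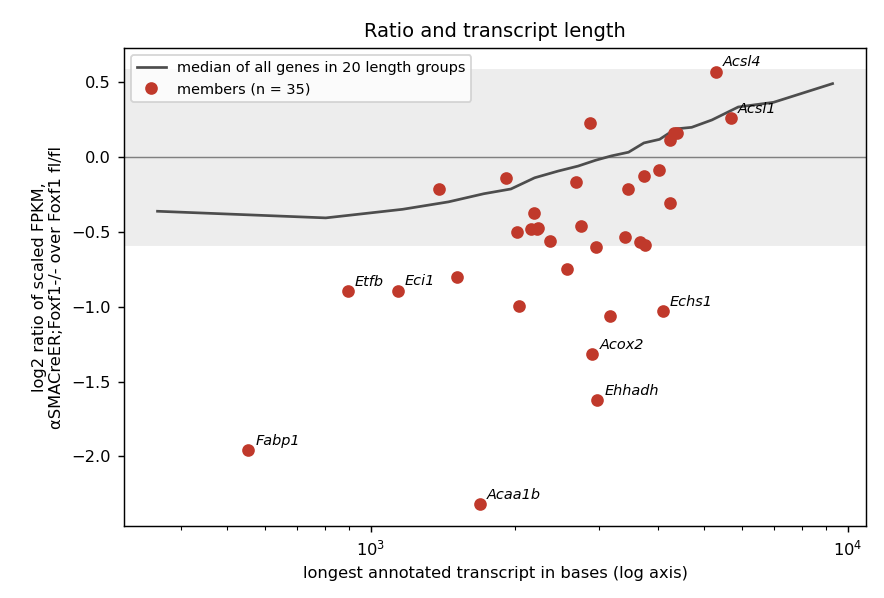
Log2 ratio of scaled FPKM, αSMACreER;Foxf1-/- over Foxf1 fl/fl, against the longest annotated transcript (log axis), for the 35 members that passed the filter (points) and as the median of all genes in 20 length groups (line), with the 1.5-fold band shaded. The line runs from below 0 for short to above 0 for long transcripts, and most members lie under it, with Acaa1b, Fabp1, Ehhadh and Acox2 the farthest.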

How the data were processed

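RNA was pooled within each genotype and sequenced as single-end 75-base reads. The submitters' processing notes name TopHat, DESeq and the mm10 build. The deposited values are FPKM per Ensembl gene, which the authors made with Cufflinks; their DESeq-based comparison was not used here. Of 38320 entries per library, 36490 (95.2%) had a symbol in GENCODE M21 (GRCm38), all 36 members overlapped their gene there, and 3 entries with a status other than OK were left out. For repeated symbols the entry with the highest mean was kept.

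The αSMACreER;Foxf1-/- values were divided by the median between-library ratio (1.02, over 12016 genes), 0.1 was added as a pseudocount ahead of log2, and summaries took genes whose mean FPKM was 1 or more. The pseudocount understates ratios of low genes. A gene could pass the filter through its value in 1 library alone, which ties its ratio to the filter. The 1.5-fold threshold was that of the study. With 1 library per genotype no test was made. Reads per gene were estimated taking fragments as 200 bases long, and exact binomial 95% intervals on them, computed without the pseudocount, cover counting error only. Intervals of differences between genes used a normal approximation on these reads.

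Members and lists were chosen with earlier results of these data known. All members are named, as are other pathway genes past 1.5-fold and the 2 most abundant of each group. The first 3 and the most abundant genes of each marker list are named too. Ppard, Pparg, Rxra, Col1a2, Cd163 and comparison-list genes were added after their values were seen. Promoters were taken from RefSeq (GRCm38.p6; 30 of 36 members matched), and coding sequences and 75-base windows from GENCODE M21 transcripts. A few genes counted in the lists are not reported here by name. Protein sequences were not used here. The scaling, the recovery of planted changes and the length adjustment were tested on simulated data that held counting error only. The read estimates, the intervals and the sequence steps were not tested in this way. Scripts ran in Python 3.11.15 with scipy 1.17.1, pandas 2.3.3, matplotlib 3.10.9 and numpy 2.4.6.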

Additional observations from a re-analysis of the deposited data

How the results depend on the processing

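No paired analysis was possible because there was a single library of either genotype, so none could be left out. Of 235 summary values recomputed under other settings, 211 stayed within the spread of their genes or within 1.5 times their count, and 24 moved further. For lists of 8 or fewer genes that spread was the full range of the genes, which their median could hardly leave. The activation and carnitine entry median, for example, went from 0.12 to 0.32 with an equal FPKM sum and still counted as staying. The 211 are therefore no measure of stability. The members at least 1.5-fold lower numbered 13 with a pseudocount of 0.01, 11 with a pseudocount of 1, with FPKM as deposited or with upper-quartile scaling (Decr1 and Hadh dropped out), 10 with an equal FPKM sum (Amacr also), 10 after length adjustment and 6 at 2-fold. Leaving out members with over 5% shared windows, chosen after seeing the data, gave 10 lower and a median of −0.49. Acsl4 made 1 member higher with FPKM as deposited, upper-quartile scaling or an equal FPKM sum. The equal FPKM sum moved the median of all genes by most, to 0.21. It gave 14 lower and 8 higher other pathway genes and 1107 lower and 2777 higher genes in all, and medians of −0.013 for electron transfer, 0.12 for the TCA cycle, −1.36 for hepatocyte and 0.69 for stellate genes, and it turned Hsd17b4 (0.038), Acadl (0.066), Etfdh (0.072) and Hadha (0.12) above 0. With no filter, 6 other pathway genes were higher, and 3218 and 3837 genes were lower and higher in all. A mean FPKM of at least 5 gave 938 and 686. At 2-fold, other pathway genes gave 9 lower and 1 higher, and all genes 786 and 554. Length adjustment left 1 other pathway gene higher, gave medians of 0.11 for the TCA cycle and −1.33 for hepatocyte genes, and changed the sign of Etfa (0.084), Acadl (0.077), Crat (−0.072), Cpt1a (−0.028), Hadhb (−0.026) and Acsl1 (−0.076). Acox2, Amacr, Pex11a, Acot2 and Ppargc1a had the fewest reads of the members and are the least precise.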
